A study of Homo sapiens with 6 samples.

Results

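The genes described here are 34 genes of cholesterol and fatty acid synthesis, out of 27745 genes counted by RNA-seq in MDA-MB-231 cells. They were chosen by name, as enzymes of sterol and lipid synthesis, the SREBP transcription factors and their sensors, and genes of cholesterol transport, by a rule that uses no expression value but was written with earlier results of these data known. MDA-MB-231 is an established human triple-negative breast cancer line, and the cells were infected with lentivirus that carried a short hairpin RNA (shRNA). Control cells received sh-TRC, and MIR100HG, a long non-coding RNA, was targeted with sh-MIR100HG-1 or sh-MIR100HG-2, each group being represented by 2 libraries (CTR1 and CTR2, KD1-1 and KD1-2, KD2-1 and KD2-2). All groups therefore shared the cell line and the lentiviral infection, and the study's methods collect infected cells for RNA at a single time. The study's text calls the 2 libraries of each MIR100HG shRNA biological replicates, but the labels do not say whether they came from separate infections, so p-values measure only the spread between these samples.

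Animal cells make cholesterol from acetyl-CoA through the mevalonate pathway, which ends in farnesyl diphosphate, and through a chain of enzymes that turns squalene into sterols. When sterols in the endoplasmic reticulum run low, SCAP escorts the SREBP factors, encoded by SREBF1 and SREBF2, to the Golgi, where they are cut and released to switch on genes of both pathways; INSIG1 and INSIG2 hold SCAP back when sterols are plentiful. SREBP commonly acts on promoters together with the factors NF-Y and Sp1, and cancer cells use these pathways to supply membranes and lipid-modified proteins.

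Promoter sequence is shown for 5 of these genes, as a record of letters that SREBP or NF-Y is known to read. SREBF2 held the only match for SREBP, while INSIG1, HMGCS1, TM7SF2 and SC5D are shown for NF-Y letters alone. RefSeq promoter windows of GRCh38.p14, each of 300 bases, were found for 30 of the 34 genes and not for ACAT2, FDFT1, SQLE and FASN. TCACNCCAC, a form of the sterol regulatory element, was found on either strand in 1 of the 30 windows (3.33%), that of SREBF2, and in 1.15% of all 27305 windows. CCAAT, the NF-Y letters, was found in 18 of the 30 windows (60%) against 35.7% of all windows, and GGGCGG, the Sp1 letters, in 28 (93.3%) against 44.6%. These motifs did not overlap each other in the 30 windows, and a match in a window is a description of letters only. For SREBP only 1 form of the element was searched, so a window without it is not shown to lack an SREBP site. The windows of all genes were not matched to those of the members in expression or base content. The 250 bases before the gene start follow, 5′ to 3′ on the gene's own strand, for SREBF2 (chr22:41832855-41833104, plus strand) and for the members with an unadjusted p under 0.05 and a CCAAT match, namely INSIG1 (chr7:155297628-155297877, plus strand), HMGCS1 (chr5:43313413-43313662, minus strand), TM7SF2 (chr11:65111622-65111871, plus strand) and SC5D (chr11:121292521-121292770, plus strand). Capitals mark TCACCCCAC in SREBF2 and, in all 5, CCAAT, which reads ATTGG here because it lies on the opposite strand.
SREBF2: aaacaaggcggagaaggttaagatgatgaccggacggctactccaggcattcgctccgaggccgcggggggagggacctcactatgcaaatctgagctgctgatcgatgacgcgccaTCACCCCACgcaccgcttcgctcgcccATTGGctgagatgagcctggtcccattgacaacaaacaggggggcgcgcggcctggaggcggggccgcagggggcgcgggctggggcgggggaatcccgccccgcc
INSIG1: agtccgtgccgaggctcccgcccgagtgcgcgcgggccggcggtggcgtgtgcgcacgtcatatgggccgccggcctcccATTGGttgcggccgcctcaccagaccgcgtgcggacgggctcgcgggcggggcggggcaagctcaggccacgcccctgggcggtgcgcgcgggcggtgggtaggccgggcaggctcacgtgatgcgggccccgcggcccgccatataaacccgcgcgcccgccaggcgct
HMGCS1: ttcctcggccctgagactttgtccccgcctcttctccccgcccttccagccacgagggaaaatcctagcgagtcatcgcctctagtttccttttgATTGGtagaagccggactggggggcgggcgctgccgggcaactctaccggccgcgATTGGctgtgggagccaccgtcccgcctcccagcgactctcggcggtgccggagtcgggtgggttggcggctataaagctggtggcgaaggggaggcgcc
TM7SF2: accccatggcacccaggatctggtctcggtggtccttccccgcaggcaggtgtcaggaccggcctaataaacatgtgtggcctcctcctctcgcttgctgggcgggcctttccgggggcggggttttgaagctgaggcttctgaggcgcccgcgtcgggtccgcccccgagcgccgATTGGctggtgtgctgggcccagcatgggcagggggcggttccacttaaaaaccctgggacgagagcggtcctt
SC5D: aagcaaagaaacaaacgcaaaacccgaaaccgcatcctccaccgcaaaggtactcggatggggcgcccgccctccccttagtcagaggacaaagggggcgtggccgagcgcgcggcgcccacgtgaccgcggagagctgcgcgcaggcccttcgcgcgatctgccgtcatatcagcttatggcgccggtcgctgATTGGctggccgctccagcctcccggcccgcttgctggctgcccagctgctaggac

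The sterol regulatory element of SREBF2 began 133 bases before the start and its CCAAT letters 106 bases before it. In HMGCS1 the 2 CCAAT matches began 155 and 100 bases before the start, in INSIG1 the match began at 170, in TM7SF2 at 74 and in SC5D at 56. The windows of IDI1 and ELOVL6, which also had an unadjusted p under 0.05 in 1 comparison or more, held no CCAAT match.

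Libraries held between 43804736 and 64588388 counts. MIR100HG, the targeted gene, stood at 41.9 and 58.5 CPM (counts scaled to library size) in the control libraries, 15.2 and 13.2 with sh-MIR100HG-1 and 16.6 and 10.4 with sh-MIR100HG-2. The groups did not overlap, with a log2 fold change (log2FC) of -1.86 (SE 0.25, edgeR quasi-likelihood test, adjusted p = 0.381; exact two-sided permutation p = 0.0667, the smallest that 4 against 2 samples can give). Of the markers of the line, VIM was at 1142 to 1541 and CD44 at 195 to 374 TPM (the same corrected for exon length). ESR1 was at 0.055 and 0.662 TPM in the controls, 0.805 and 0.158 with sh-MIR100HG-1 and 0.044 and 0.032 with sh-MIR100HG-2. CDH1 was at 1.8 and 4.33, 3.19 and 1.2, and 0.954 and 1.39 TPM in the same order. PGR had 0 or 1 count per library, whereas ERBB2 was at 25.3 to 42.7 TPM. PTPRC, CD3E, ALB and COL3A1, markers of blood, liver and connective tissue cells, stood at or below 0.404 TPM, while CD68, also a lysosomal gene, was at 294 to 431 TPM.

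The 2 libraries of a group differed from each other in these genes, by amounts like those between the groups. Of the 11 genes that act from squalene to cholesterol, 11 were lower in CTR2 than in CTR1 (median log2 difference -0.35), 9 were higher in KD1-2 than in KD1-1 (0.45) and 11 were higher in KD2-2 than in KD2-1 (0.63). Over all genes tested the medians of these differences were -0.01, -0.01 and -0.03, and 49.1%, 49.3% and 47.6% of genes were higher in the replicate numbered 2. The whole set of 34 followed to a lesser degree, with 10 genes higher in CTR2 than in CTR1 (29.4%), 20 higher in KD1-2 than in KD1-1 (58.8%) and 29 higher in KD2-2 than in KD2-1 (85.3%). CTR2 or KD2-1 was the lowest library for 22 of the 34 genes (64.7%, against 29.7% of all genes), and KD1-2 or KD2-2 the highest for 24 (70.6%, against 40.2%). These pairs are the libraries most often lowest or highest among these same 34 genes, so the choice favours a high share. Each of these values is a description, since genes of one pathway are not independent of each other, and what set these libraries apart was not tested.

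**Figure D1:**
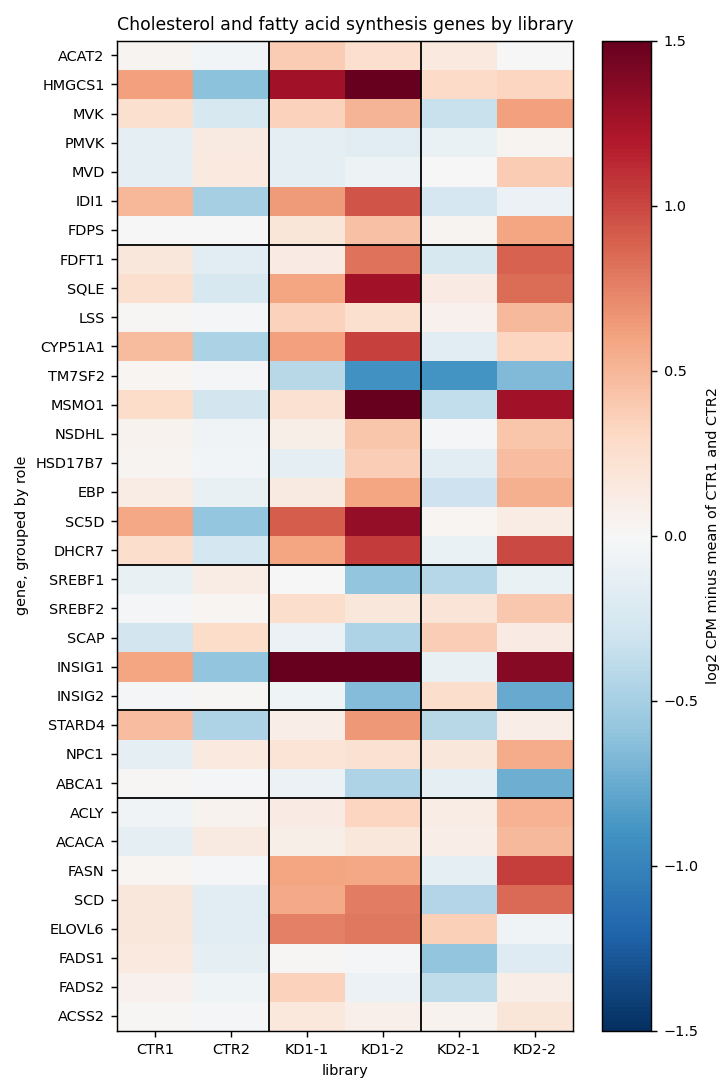
Heat map of the 34 genes (rows, grouped by role) in the 6 libraries (columns), coloured by log2 CPM minus the mean of CTR1 and CTR2, clipped at -1.5 and 1.5. KD1-2 and KD2-2 are red for most enzymes from squalene to cholesterol, CTR2 and KD2-1 are pale or blue for most of them, and TM7SF2 is blue in all 4 knockdown libraries.

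Expressed as the median over the 34 genes of log2 CPM minus the control mean, CTR1 stood at 0.05 and CTR2 at -0.05. On this scale the 2 controls lie equally far from 0 by construction. In single genes CTR2 minus CTR1 ran from -1.23 to 0.55. KD1-1 stood at 0.19 and KD1-2 at 0.39, so that both libraries of sh-MIR100HG-1 lay above both controls. KD2-1 stood at -0.10, below both controls, and KD2-2 at 0.39. The same median over all genes tested lay between -0.07 and 0.02 in every library. Together the 34 genes took 0.488% and 0.416% of counts in the controls, 0.572% and 0.580% with sh-MIR100HG-1 and 0.392% and 0.595% with sh-MIR100HG-2. Total counts were 58410375 in CTR2, 46067690 in KD2-1, 43804736 in KD1-2 and 52814374 in KD2-2.

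**Figure D2:**
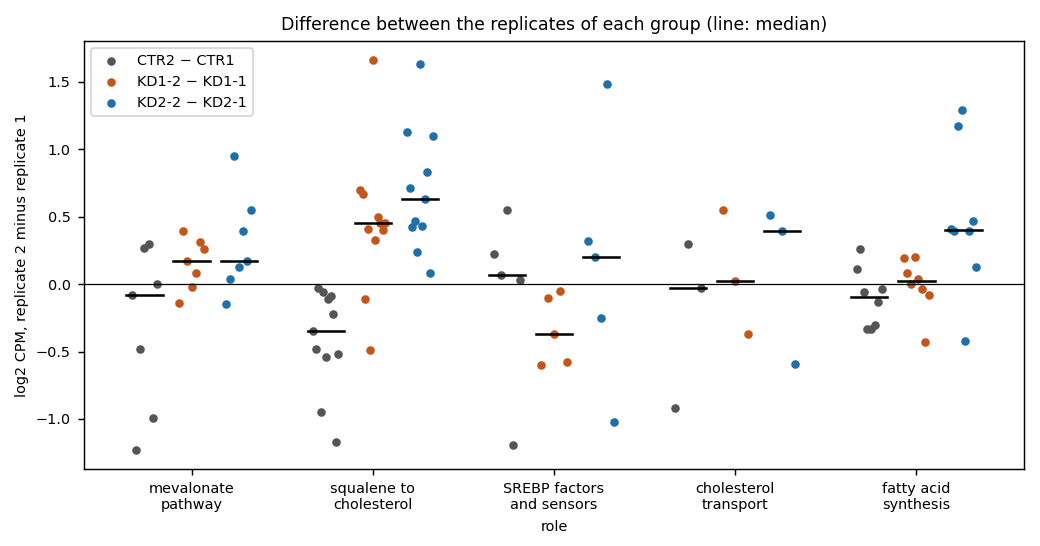
Difference in log2 CPM between the 2 libraries of each group (vertical axis, the library numbered 2 minus the library numbered 1) for every gene, by role (horizontal axis), with each point a gene and each line a median. From squalene to cholesterol all 11 points lie below 0 in the control (median -0.35) and all 11 above 0 with sh-MIR100HG-2 (median 0.63).

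Corrected for exon length, 3 enzymes of fatty acid synthesis were the most abundant members in the control. SCD, which places the double bond in stearoyl-CoA, was at 411.6 ± 84.5 TPM, ACLY, which makes cytosolic acetyl-CoA, at 377.3 ± 3.15 TPM and FASN, the fatty acid synthase, at 213.9 ± 16.2 TPM (mean ± SD, n = 2). SREBF1 followed at 140.4 ± 8.92 TPM, then EBP at 135.7 ± 20.5, FDPS at 132.7 ± 5.62 and INSIG1 at 130.9 ± 77.0 TPM. These 4 did not differ beyond their spread, and that of INSIG1 spanned most of the order. At the low end, CYP51A1 was at 9.78 ± 4.84 TPM, HSD17B7 at 10.4 ± 0.942, TM7SF2 at 15.7 ± 1.17 and SQLE at 18.9 ± 5.28 TPM. The value of CYP51A1 is uncertain, since 78.8% of its exon bases are shared with LRRD1 on the same strand, and so is that of ACAT2, with 52.3% of its exon bases shared with genes on the opposite strand. Another 8 of the 34 genes shared between 0.47% and 9.63% of their exon bases with other counted genes.

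**Figure D3:**
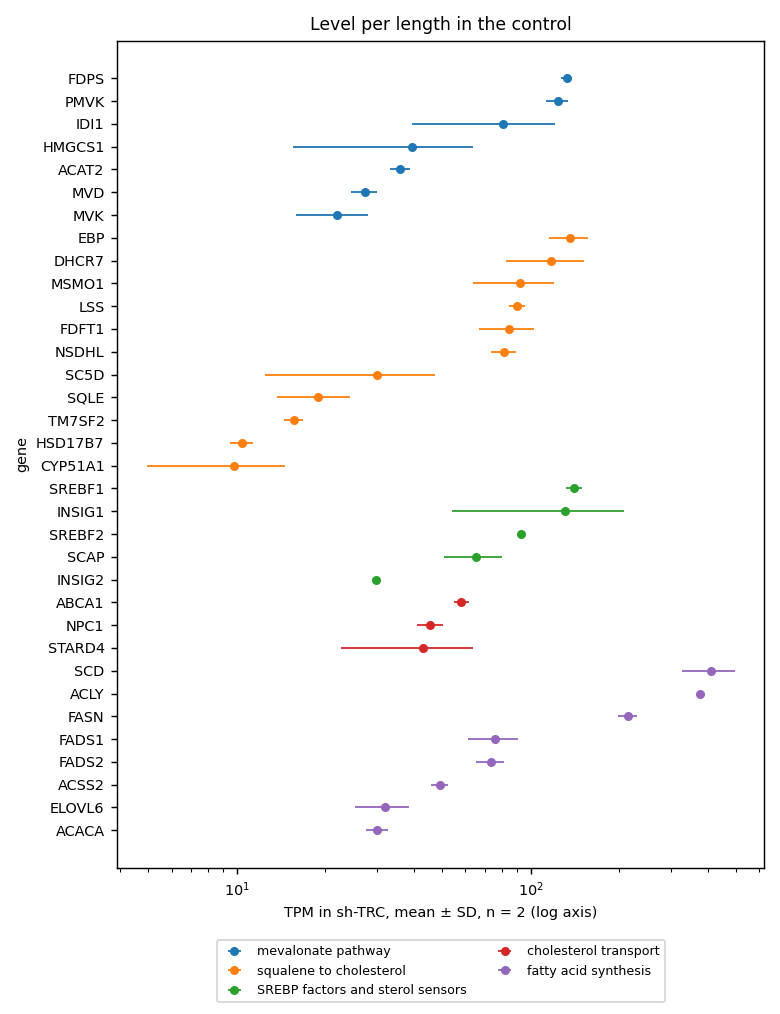
Level of each gene in the control (horizontal log axis, TPM, mean ± SD of CTR1 and CTR2), grouped and coloured by role. SCD, ACLY and FASN lie above 200 TPM, CYP51A1 and HSD17B7 near 10 TPM, and the error bars of HMGCS1, SC5D, INSIG1 and STARD4 are among the longest.

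Comparing all 4 knockdown with the 2 control libraries asks whether loss of MIR100HG changed these genes. These are bulk libraries, in which fewer cells that express a gene and less RNA per cell cannot be told apart. All 34 passed the filter on low counts, and 0 of them, as of all 15372 genes tested (0%), reached an adjusted p at or below 0.05 in edgeR's quasi-likelihood test. An unadjusted p under 0.05 was found for 1180 genes in all, among them 3 of the 34 with higher values (HMGCS1, SQLE and INSIG1), where the background is 3.23%, and 1 of the 34 with lower values (TM7SF2), where it is 4.44%. EdgeR's likelihood ratio test called 109 genes and DESeq2 130 genes, with 0 of the 34 among either. Fitted log2FC was above 0 for 27 of the 34 genes (79.4%), against 45.6% of all genes, and its median was 0.27 against -0.04. By role the median log2FC was 0.40 from squalene to cholesterol (10 of 11 genes above 0), 0.25 in fatty acid synthesis (7 of 8), 0.23 in the mevalonate pathway (6 of 7), 0.06 in cholesterol transport (2 of 3) and -0.03 among SREBP factors and sensors (2 of 5). The groups did not overlap for 6 genes with higher values, FDPS, LSS, SREBF2, NPC1, ACLY and ACSS2 (background 8.4%), and for 2 with lower values, TM7SF2 and ABCA1 (background 9.08%).

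The number of members at an unadjusted p under 0.05 changed with single libraries, and so did the share over all genes tested. There were 4 members with all libraries (7.68% of all genes), 0 without CTR2 (5.06%), 1 without KD1-2 (4.53%), 2 without KD2-2 (6.46%) and 8 without KD2-1 (10.7%). The median log2FC of the 34 genes was 0.19 without CTR2, 0.12 without KD2-2 and 0.34 without KD2-1, and so was above 0 each time.

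Among the genes of the mevalonate pathway, HMGCS1 and IDI1 had the widest spread. HMGCS1 (ENSG00000112972.14_2, chr5:43289497-43313614 of GRCh37, minus strand) encodes the cytosolic HMG-CoA synthase. It stood at 66.0 and 27.98 CPM in the controls, 103 and 135 with sh-MIR100HG-1 and 52.4 and 53.9 with sh-MIR100HG-2. Both sh-MIR100HG-1 libraries were above both controls, while those of sh-MIR100HG-2 lay between the controls. Knockdown against control gave a log2FC of 0.76 (SE 0.33, unadjusted p = 0.0496, edgeR adjusted p = 0.649), which was 0.27 without CTR2 and 1.5 without CTR1.

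IDI1 (ENSG00000067064.10_2, chr10:1085848-1095110, minus strand), the isomerase of isopentenyl diphosphate, had a like pattern. Its values were 97.1 and 48.7 CPM in the controls, 107 and 133 with sh-MIR100HG-1 and 57.7 and 64.8 with sh-MIR100HG-2. The log2FC of 0.23 (SE 0.28, edgeR adjusted p = 0.885) was -0.18 without CTR2, and so had no settled direction. FDPS (ENSG00000160752.14_1, chr1:155278539-155290457, plus strand), the farnesyl diphosphate synthase and the most abundant gene of this role, was at 125.9 and 126.2 CPM in the controls, 142 and 170.3 with sh-MIR100HG-1 and 129.6 and 189 with sh-MIR100HG-2. All 4 knockdown values were above both controls, KD2-1 by little (log2FC 0.32, SE 0.21, edgeR adjusted p = 0.757, exact two-sided permutation p = 0.133). The other 4 genes were ACAT2, the thiolase of the opening step, the kinases MVK and PMVK and the decarboxylase MVD. Their log2FC ran from -0.10 for PMVK to 0.30 for MVK, and the smallest unadjusted p among them was 0.308, for ACAT2.

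From squalene to cholesterol, SQLE, the squalene epoxidase (ENSG00000104549.11_1), stood at 24.2 and 17.3 CPM in the controls, 30.9 and 49.0 with sh-MIR100HG-1 and 22.3 and 36.7 with sh-MIR100HG-2. Of the 4 knockdown libraries, KD2-1 lay between the controls and the others above both. The log2FC was 0.73 (SE 0.30, unadjusted p = 0.0422, edgeR adjusted p = 0.642), and 0.51 without CTR2.

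TM7SF2 (ENSG00000149809.14_2, chr11:64879317-64883856, plus strand), a sterol reductase that acts after lanosterol demethylation, went the other way from its neighbours in the pathway. It was at 13.9 and 13.4 CPM in the controls, 10.2 and 7.20 with sh-MIR100HG-1 and 7.25 and 8.61 with sh-MIR100HG-2. The 4 knockdown values lay below both controls, and the controls differed little. Its log2FC of -0.72 (SE 0.24, unadjusted p = 0.0179, edgeR adjusted p = 0.567, exact two-sided permutation p = 0.0667) stayed between -0.85 and -0.60 with any library left out. It was the member with the smallest p in this comparison.

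SC5D (ENSG00000109929.9_1, chr11:121163162-121179403, plus strand), the lathosterol desaturase, was at 58.3 and 25.8 CPM in the controls, 73.2 and 96.7 with sh-MIR100HG-1 and 39.7 and 41.9 with sh-MIR100HG-2. As with HMGCS1, sh-MIR100HG-1 lay above both controls and sh-MIR100HG-2 between them. The log2FC of 0.48 (SE 0.32, edgeR adjusted p = 0.757) was 0.01 without CTR2. EBP (ENSG00000147155.10_2, chrX:48379546-48387104, plus strand), the sterol isomerase, was at 89.6 and 77.0 CPM in the controls, 91.5 and 125 with sh-MIR100HG-1 and 67.2 and 119.8 with sh-MIR100HG-2. KD2-1 was its lowest and KD1-2 its highest library, and the groups overlapped (log2FC 0.27, SE 0.27, edgeR adjusted p = 0.852).

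MSMO1, a sterol methyl oxidase, FDFT1, the squalene synthase, and DHCR7, the reductase that removes the double bond of the B ring, differed between the libraries of both shRNAs. MSMO1 was at 80.2 and 54.9 CPM in the controls, but at 77.6 and 246 with sh-MIR100HG-1 and at 51.4 and 159.7 with sh-MIR100HG-2. A single library of each shRNA thus stood apart from the other 4 samples, and the log2FC of 0.95 had an SE of 0.55. FDFT1 was at 125.6 and 98.7 CPM in the controls, 121 and 197 with sh-MIR100HG-1 and 93.9 and 205.5 with sh-MIR100HG-2, with a log2FC of 0.46 (SE 0.34). DHCR7 was at 145.8 and 101 CPM in the controls, 184 and 250.9 with sh-MIR100HG-1 and 113 and 242.5 with sh-MIR100HG-2. LSS, CYP51A1, NSDHL and HSD17B7, which close the ring to lanosterol, demethylate it and process the intermediates, had log2FC from 0.16 to 0.40.

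Of the regulators, INSIG1 (ENSG00000186480.12_2, chr7:155089486-155101945, plus strand) had the largest log2FC of all 34 genes. It retains SCAP in the endoplasmic reticulum and is itself a target of SREBP. Its values were 167.6 and 73.6 CPM in the controls, 335 and 323 with sh-MIR100HG-1 and 103 and 286 with sh-MIR100HG-2. Both sh-MIR100HG-1 libraries and KD2-2 lay above the controls, and KD2-1 between them. The log2FC of 1.07 (SE 0.45, unadjusted p = 0.0432, edgeR adjusted p = 0.642) was 0.59 without CTR2, 0.61 without KD2-2 and 1.78 without CTR1.

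The SREBP genes themselves had small log2FC. SREBF1 (ENSG00000072310.16_2, chr17:17713713-17740316, minus strand), which encodes the factor most tied to fatty acid genes, was at 267 and 311 CPM in the controls, 288 and 190.5 with sh-MIR100HG-1 and 215 and 269 with sh-MIR100HG-2. The groups overlapped (log2FC -0.26, SE 0.22, edgeR adjusted p = 0.823). SREBF2, which encodes the factor most tied to cholesterol genes, was at 175 and 184 CPM in the controls, 215.5 and 201.5 with sh-MIR100HG-1 and 206 and 237 with sh-MIR100HG-2. Its 4 knockdown values were all above both controls, by a log2FC of 0.26 (SE 0.17, unadjusted p = 0.175; exact two-sided permutation p = 0.0667). SCAP and INSIG2 had log2FC of -0.03 and -0.25.

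Of the transport genes, ABCA1 (ENSG00000165029.15_1, chr9:107543283-107690518, minus strand), which exports cholesterol to lipoproteins, was at 170.3 and 167 CPM in the controls, 159 and 123 with sh-MIR100HG-1 and 153 and 102 with sh-MIR100HG-2. All 4 knockdown values were below both controls, and KD1-2 and KD2-2 were the lowest (log2FC -0.33, SE 0.22, edgeR adjusted p = 0.757, exact two-sided permutation p = 0.133). NPC1, which moves cholesterol out of lysosomes, had a log2FC of 0.29 and STARD4, a sterol carrier of the cytosol, of 0.06.

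In fatty acid synthesis, SCD (ENSG00000099194.5_1, chr10:102106881-102124591, plus strand) was at 626 and 497.5 CPM in the controls, 826 and 949 with sh-MIR100HG-1 and 413 and 1006 with sh-MIR100HG-2. KD2-1 was the lowest library and KD2-2 the highest, and the log2FC was 0.50 (SE 0.33, edgeR adjusted p = 0.760). FASN was at 501 and 479 CPM in the controls, 736 and 734 with sh-MIR100HG-1 and 447 and 1003 with sh-MIR100HG-2, again with the 2 libraries of sh-MIR100HG-2 on either side of the controls. ELOVL6 (ENSG00000170522.9_1, chr4:110967002-111120355, minus strand), which lengthens palmitate, was at 66.2 and 52.5 CPM in the controls, 99.6 and 102 with sh-MIR100HG-1 and 75.7 and 56.7 with sh-MIR100HG-2. Unlike SCD and FASN it was lower in KD2-2 than in KD2-1 (log2FC 0.46, SE 0.21, unadjusted p = 0.0558, edgeR adjusted p = 0.665). ACLY, ACACA, the desaturases FADS1 and FADS2 and ACSS2, which activates acetate, had log2FC from -0.20 to 0.28.

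**Figure D4:**
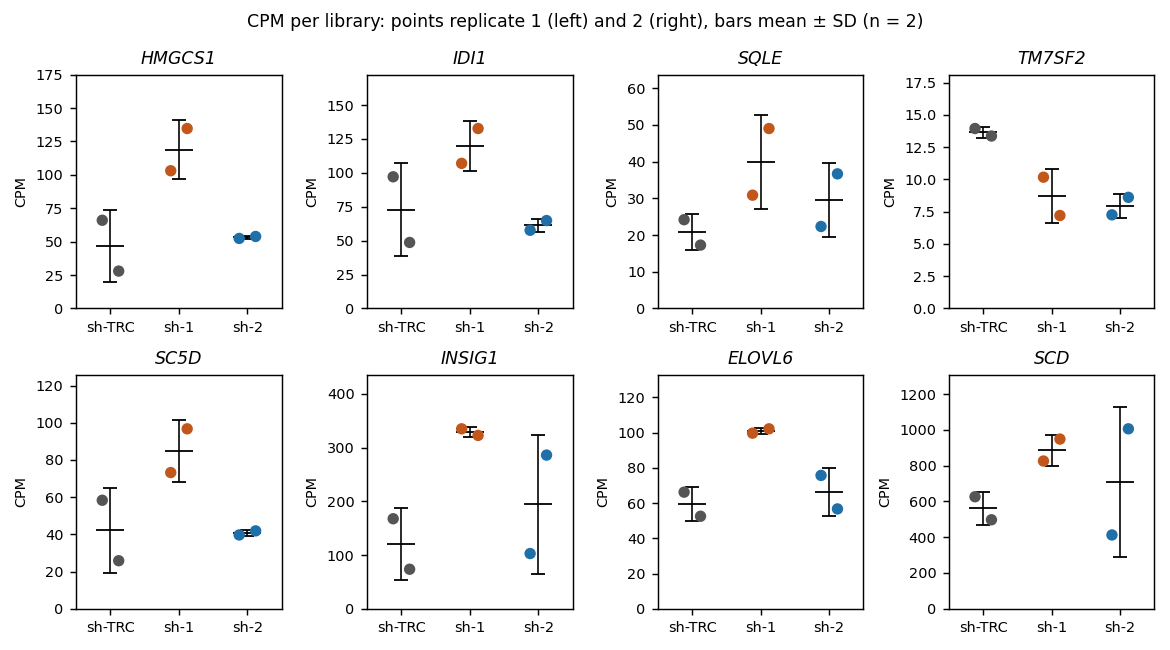
CPM (vertical axes, starting at 0) of 8 of the genes in each group, with each point a library and the lines the mean ± SD (n = 2). HMGCS1, IDI1, SC5D and ELOVL6 are higher with sh-MIR100HG-1 than in any other library, TM7SF2 is lower in all 4 knockdown libraries, and INSIG1 and SCD are split between the 2 libraries of sh-MIR100HG-2.

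Each shRNA was then set against the control separately; both comparisons use the same control libraries, so their values are given side by side and not as independent evidence. With sh-MIR100HG-1, 0 of the 34 genes and 0 of 15372 genes (0%) passed an adjusted p of 0.05 in edgeR's quasi-likelihood test, against 34 genes by its likelihood ratio test and 66 by DESeq2, again with 0 of the 34 among them. Of 1056 genes with an unadjusted p under 0.05, 5 were members with higher values (background 3.10%) and 0 with lower values (background 3.77%). They were HMGCS1 (log2FC 1.34, SE 0.38), INSIG1 (1.45, SE 0.50), SC5D (1.01, SE 0.36), SQLE (0.95, SE 0.34) and ELOVL6 (0.77, SE 0.24), each with an adjusted p of 0.714. With 1 library left out, the log2FC ran from 0.85 to 2.08 for HMGCS1, from 0.97 to 2.16 for INSIG1 and from 0.54 to 1.72 for SC5D. For ELOVL6 it ran from 0.61 to 0.94. In these genes the lowest value was without CTR2 and the highest without CTR1. SQLE ran from 0.57 without KD1-2 to 1.24 without KD1-1. The median log2FC of the 34 genes was 0.30, with 26 above 0 (76.5%), against a median of 0 and 49.7% above 0 over all genes tested. With 1 library left out, the median of the 34 ran from 0.18 without KD1-2 to 0.39 without KD1-1.

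With sh-MIR100HG-2, edgeR's quasi-likelihood test gave 0 of the 34 and 0 of all genes (0%), the likelihood ratio test 121 genes and DESeq2 167, with 0 of the 34 in any of them. Of 1362 genes with an unadjusted p under 0.05, 0 were members with higher values (background 3.71%) and 1 with lower values (background 5.15%), which was TM7SF2 (log2FC -0.78, SE 0.29, unadjusted p = 0.0261, adjusted p = 0.529). Its log2FC with sh-MIR100HG-1 was -0.65 (SE 0.29, unadjusted p = 0.0532). The median log2FC of the 34 genes was 0.19, with 24 above 0 (70.6%), against a median of -0.04 and 45.8% above 0 over all genes tested. However, the median of the 34 was -0.12 without KD2-2, with 13 above 0, and 0.39 without KD2-1, with 25 above 0. Without KD2-1, 8 of the 34 were at an unadjusted p under 0.05 (12.5% of all genes), and without CTR1 there were 2, HMGCS1 and INSIG1 (4.02% of all genes, against 8.86% with all libraries). The direction of the set with sh-MIR100HG-2 thus depended on which of its 2 libraries was read.

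**Figure D5:**
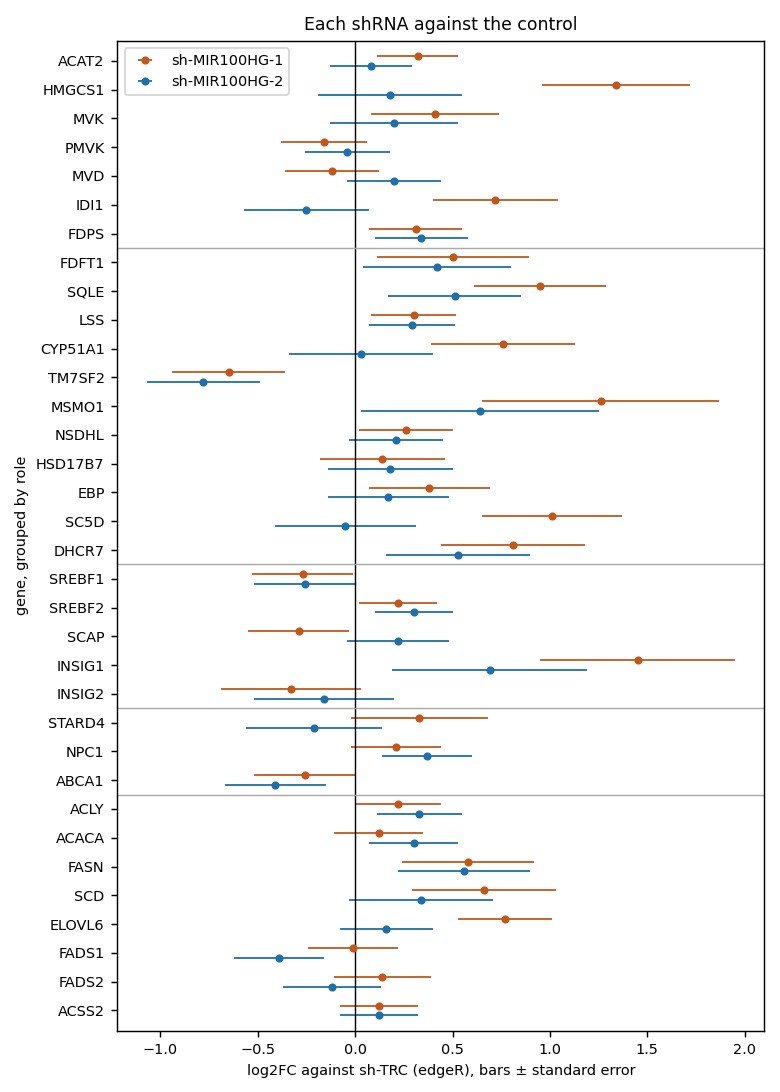
Fitted log2FC against sh-TRC (horizontal axis, bars ± SE from edgeR) for each of the 34 genes, with sh-MIR100HG-1 in orange and sh-MIR100HG-2 in blue. TM7SF2 is the gene farthest below 0 with each shRNA, INSIG1 the farthest above, and HMGCS1, IDI1 and SC5D have orange points near 0.7 or higher and blue points within 1 SE of 0.

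The shRNAs were also compared with each other. This contrast is the difference between the 2 shRNA groups. All 3 groups share 1 model, though, so the controls enter its normalization, SE and p. In edgeR's quasi-likelihood test 0 of the 34 and 0 of all genes (0%) passed an adjusted p of 0.05, while the likelihood ratio test called 91 genes and DESeq2 103, with 0 of the 34 among them. Of 1453 genes at an unadjusted p under 0.05, 0 of the 34 were higher with sh-MIR100HG-2 (background 3.34%) and 4 were lower (background 6.12%). These were HMGCS1 (log2FC -1.16, SE 0.37), IDI1 (-0.97, SE 0.33), SC5D (-1.06, SE 0.36) and ELOVL6 (-0.61, SE 0.24), all with an adjusted p of 0.509. For each of the 4, picked by p in this same comparison, both sh-MIR100HG-1 libraries were above both sh-MIR100HG-2 libraries. The same held for 9 of the 34 members and for 3586 of all 15372 genes. Without KD1-2 the count was 0 (6.2% of all genes), and without KD2-2 it was 9 (7.14%, against 9.45% with all libraries). INSIG1, with a log2FC of -0.76 (SE 0.50, unadjusted p = 0.163), and TM7SF2, with -0.13 (SE 0.29), did not reach that level. Median log2FC over the 34 genes was -0.14, against -0.01 over all genes.

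Other genes of these pathways were read from a list of 78, of which 74 passed the filter and IDI2, CYP7B1, ELOVL4 and THRSP did not. After knockdown 0 of the 74 reached an adjusted p of 0.05 in edgeR's quasi-likelihood test, whereas 5 with higher values and 4 with lower values had an unadjusted p under 0.05, 12.2% of the list against 7.68% of all genes. LBR, which encodes the other reductase able to carry out the step of TM7SF2, was at 104 and 100.2 CPM in the controls, 185 and 205.5 with sh-MIR100HG-1 and 171.5 and 169.6 with sh-MIR100HG-2. Its 4 knockdown values were above both controls (log2FC 0.84, SE 0.18, unadjusted p = 0.00132, adjusted p = 0.433), so the genes of the 2 reductases differed from the control in opposite directions, with neither past the threshold.

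FBXW7, a ubiquitin ligase subunit that marks nuclear SREBP for destruction, was at 31.4 and 26.2 CPM in the controls, 49.1 and 58.9 with sh-MIR100HG-1 and 50.1 and 50.4 with sh-MIR100HG-2 (log2FC 0.86, SE 0.20, edgeR adjusted p = 0.446). MYLIP, a ligase that removes lipoprotein receptors from the cell surface, was at 23.5 and 24.3 CPM in the controls, 45.0 and 34.4 with sh-MIR100HG-1 and 55.3 and 45.5 with sh-MIR100HG-2 (log2FC 0.90, SE 0.21, edgeR adjusted p = 0.446). Neither gene had a knockdown value within the range of the controls. CPT1A, which admits fatty acids to mitochondria for oxidation, was at 53.4 and 62.2 CPM in the controls and at 33.7 to 42.1 in the knockdown libraries (log2FC -0.67, SE 0.19, edgeR adjusted p = 0.488). MLXIPL, which encodes the glucose-responsive factor ChREBP, was low throughout, at 3.83 and 3.28 CPM in the controls and 1.17 to 2.38 after knockdown (log2FC -1.06, SE 0.32, edgeR adjusted p = 0.522). LPIN3, a phosphatidate phosphatase, had a log2FC of -0.65 (SE 0.25, edgeR adjusted p = 0.622), and its groups overlapped. LBR, FBXW7, MYLIP and CPT1A differed less between the libraries of a group than between knockdown and control. They were named by the smallest p in this comparison, which favours such genes, so this is no separate result.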

How the data were processed

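RNA was sequenced from 6 libraries of MDA-MB-231 cells, 2 for each of sh-TRC, sh-MIR100HG-1 and sh-MIR100HG-2, grouped by the labels. The authors deposited unnormalized read counts for each gene, made by trimming reads, mapping them to GRCh37 with STAR (version 2.5.2a in the submitters' processing notes) and assigning them to exons with featureCounts. The strand setting and the handling of multiply mapped reads are not given in the sources used here. How reads of overlapping genes were counted, or whether they were left out, is therefore not known. Symbols were matched for 26966 of 27745 identifiers, and 779 had none.

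The filter dropped a gene if 3 samples or more had under 5 counts, which left 15372 genes. The 3 groups were fitted in 1 model in edgeR 4.0.16 (R 4.3.3) with TMM normalization and the quasi-likelihood test, and p-values were adjusted by Benjamini-Hochberg over all genes tested; the common biological coefficient of variation was 27.8%. CPM values are TMM-normalized, log2 values used a pseudocount of 0.125 CPM, and TPM used the deposited exon lengths. Libraries held 43804736 to 64588388 counts, and the 2 libraries per group set the precision. Exact permutation tests used all 15 splits of 4 against 2 libraries. DESeq2 1.42.0, edgeR's likelihood ratio test, other scaling, no filter and leaving out each library were alternatives.

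The members and gene lists were chosen with earlier results of these data known. Members were given in full where an unadjusted p was under 0.05 in any comparison or control TPM was the highest of their role; MSMO1, FDFT1, DHCR7, SREBF2 and FASN were added after their values were seen. Of the other pathway genes, up to 6 with the smallest p were named in each of 2 comparisons. The 2 libraries of each group differed by more than sampling noise, and pairs across groups were not compared for this.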

Additional observations from a re-analysis of the deposited data

Results flagged for a closer look

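Setting sh-MIR100HG-2 against sh-MIR100HG-1 in edgeR's quasi-likelihood model gave 4 members an unadjusted p under 0.05, which is 11.8% of the 34 against 9.45% of all genes, and none of them passed the adjusted threshold. Without KD1-2 the count was 0. HMGCS1, the HMG-CoA synthase, had a log2FC of -1.16, IDI1, the isomerase of isopentenyl diphosphate, of -0.97, SC5D, the lathosterol desaturase, of -1.06 and ELOVL6, the elongase of palmitate, of -0.61. Unadjusted p-values were 0.0138, 0.0167, 0.0187 and 0.0317, and the adjusted p was 0.509 for each over 15372 genes. For all 4, picked by p in this same comparison, both sh-MIR100HG-1 libraries were above both sh-MIR100HG-2 libraries. That order was also seen in 3586 of all 15372 genes and in 9 of the 34 members, these 4 included. MIR100HG itself was at 15.2 and 13.2 CPM with sh-MIR100HG-1 and 16.6 and 10.4 CPM with sh-MIR100HG-2, and the part of its level in these differences was not tested.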

How the results depend on the processing

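Mean counts of the members were 545.8 or more, and the common biological coefficient of variation was 27.8%. Comparisons are given here in the order knockdown, sh-MIR100HG-1, sh-MIR100HG-2 and the difference between the shRNAs. Without the filter on low counts, 392, 227, 517 and 679 of 21349 genes tested were called. Members among them numbered 2, 4, 0 and 3 of the 34. With the filter the quasi-likelihood test called 0 genes in each comparison. The likelihood ratio test called 109, 34, 121 and 91, and DESeq2 130, 66, 167 and 103. Leaving out 1 library gave 0 to 1, 0 to 3, 0 to 5 and 0 to 7 calls. Members at an unadjusted p under 0.05 numbered 4, 5, 1 and 4 (7.68%, 6.87%, 8.86% and 9.45% of all genes). Without the filter they numbered 8, 11, 5 and 7 (9.05%, 7.69%, 9.89% and 11% of all genes), and for sh-MIR100HG-1 8 by the likelihood ratio test (7.68%) and 9 by DESeq2 (8.35%). With 1 library left out, the median log2FC of the members after knockdown ran from 0.12 to 0.34. The other pathway genes at that level after knockdown, 9 in number, ran from 5 to 10 with a library left out and numbered 11 without the filter and with either replicate block. The log2FC of MIR100HG was -1.86 without the filter (adjusted p = 2.77e-10), -1.86 by the likelihood ratio test (1.21e-06) and -1.84 by DESeq2 (5.1e-07), and ran from -2.08 to -1.60 with a library left out. IDI1 after knockdown reversed to -0.18 without CTR2, against 0.23 with all libraries and up to 0.81 without CTR1. Of 286 values of 12 single members under alternatives, 285 kept their direction and 7 passed an adjusted p of 0.05, all without the filter. These 7 were INSIG1 after knockdown and with sh-MIR100HG-1, HMGCS1 and SC5D with sh-MIR100HG-1, and HMGCS1, IDI1 and SC5D between the shRNAs. MSMO1, not among the 286 values, was also called without the filter after knockdown and with sh-MIR100HG-1. Most of the 12 members were picked for an unadjusted p under 0.05 in the same libraries. Their kept direction is therefore no separate result and does not stand for the 34. With sh-MIR100HG-2 the 286 values hold TM7SF2 alone, whereas members above 0 went from 24 to 13 of the 34 without KD2-2. The causes of these changes were not tested.

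Deviations of same-numbered libraries correlated at -0.213 (sh-TRC with sh-MIR100HG-1), 0.022 (sh-TRC with sh-MIR100HG-2) and 0.497 (sh-MIR100HG-1 with sh-MIR100HG-2), so the numbers went together between the shRNAs and not with the control, and were not taken as pairs. With the replicate block, 4, 6, 1 and 4 members were at an unadjusted p under 0.05 (10.3%, 9.24%, 11.9% and 13.1% of all genes) and 0 genes were called, so the block changed no call at an adjusted p. With the control's replicate numbers swapped, an alternative chosen after seeing the data, the members numbered 6, 11, 1 and 8 (11%, 10.8%, 11.1% and 12.1% of all genes), and 0 genes were called.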

Other observations

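Between the shRNAs, 3 of the 74 other pathway genes had higher values with sh-MIR100HG-2 (background 3.34%) and 6 had lower values (background 6.12%) at an unadjusted p under 0.05, 12.2% of the list against 9.45% of all genes, and 0 passed the adjusted p in edgeR's quasi-likelihood test. CH25H, which makes an oxysterol from cholesterol, was at 8.04 and 5.86 CPM with sh-MIR100HG-1 and 28.4 and 11.5 with sh-MIR100HG-2, against 20.2 and 15.4 in the controls (log2FC 1.52, SE 0.43, adjusted p = 0.509). ABCG1, a sterol exporter, was at 10.7 and 11.3 CPM with sh-MIR100HG-1 and 18.6 and 23.3 with sh-MIR100HG-2, against 17.4 and 27.4 in the controls (log2FC 0.93, SE 0.29, adjusted p = 0.509). For both genes sh-MIR100HG-1 lay below the controls and sh-MIR100HG-2 did not overlap it, whereas HMGCS1, IDI1 and SC5D were lower with sh-MIR100HG-2 than with sh-MIR100HG-1. DGAT2, which completes triglycerides, had a log2FC of 1.06 (SE 0.37), PNPLA3, a lipid droplet hydrolase, of -0.93 (SE 0.34), HACD2, a dehydratase of fatty acid elongation, of -0.59 (SE 0.23) and MLXIPL of -0.93 (SE 0.39).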
